A study of Mus musculus with 36 samples.

Results

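Messenger RNA of mouse intestinal organoids that had received pulses of DAPT every 130 min for 48 h was compared with that of organoids given the DMSO control for the same time, across all expressed genes. The comparison took the 3 libraries of each group by their labels, so that 6 of the 36 libraries of the series entered it directly. The organoids were grown from the duodenum of C57BL/6 mice over 8 weeks of age, males or virgin females, and held all cell types that grew, without sorting. They were passaged 2 days before the experiment, grown in medium with EGF, Noggin and R-spondin and kept in a microfluidic chip under a flow of 200 µl/h. The pulsed group received 2 µM DAPT, and the labels call the other group a DMSO control without saying whether DMSO was pulsed. Each sample held 20 to 50 organoids, and the labels do not say whether the 3 replicates of a group came from separate mice or cultures. The p-values here therefore reflect a spread among replicate libraries, estimated over all 36 libraries of the series, which may be technical. The rest of the series held 24 h and 72 h versions of both groups and pulses with periods of 90 min and 170 min.

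DAPT inhibits gamma-secretase, the protease that releases the intracellular part of Notch receptors, so that it can enter the nucleus and act with Rbpj on targets such as Hes1. In intestinal crypts, Notch activity keeps cells in the stem and absorptive states and holds back Atoh1, the transcription factor that directs cells to the goblet, Paneth and enteroendocrine fates. Hes1 represses its own promoter and that of Atoh1, and its level oscillates in many cell types. According to the series design, the periods were chosen to entrain these oscillations and to look for small shifts in cell type composition.

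The promoters of Atoh1 and of a pair of goblet cell genes are shown because Atoh1 links Notch activity to the goblet cell genes described below. The windows run from 250 bases before to 50 bases after the annotated start, from RefSeq on GRCm38.p6. Capitals mark the N-box CACNAG, a hexamer that Hes proteins bind, in Atoh1, and the E-box CAGCTG, a hexamer that Atoh1 can bind, in the others. Both strands were searched, so that the N-box match in Atoh1 appears as its reverse complement.
Atoh1: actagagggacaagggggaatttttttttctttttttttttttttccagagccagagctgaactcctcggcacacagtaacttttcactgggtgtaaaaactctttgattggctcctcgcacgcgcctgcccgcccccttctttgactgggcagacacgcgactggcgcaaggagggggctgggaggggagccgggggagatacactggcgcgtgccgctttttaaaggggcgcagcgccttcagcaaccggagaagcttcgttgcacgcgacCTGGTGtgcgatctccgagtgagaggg
Fcgbp: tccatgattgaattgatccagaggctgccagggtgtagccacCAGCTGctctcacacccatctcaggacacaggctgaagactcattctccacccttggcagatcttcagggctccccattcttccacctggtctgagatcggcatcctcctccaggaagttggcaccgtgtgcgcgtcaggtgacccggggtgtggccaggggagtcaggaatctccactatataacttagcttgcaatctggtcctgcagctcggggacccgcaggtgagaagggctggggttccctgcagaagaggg
Creb3l4: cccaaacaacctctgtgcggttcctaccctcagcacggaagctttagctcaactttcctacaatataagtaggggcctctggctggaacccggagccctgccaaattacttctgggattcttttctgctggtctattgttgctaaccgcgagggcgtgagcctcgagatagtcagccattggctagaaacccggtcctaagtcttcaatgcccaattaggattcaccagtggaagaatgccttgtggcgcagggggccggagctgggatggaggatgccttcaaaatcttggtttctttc
The Atoh1 window (chr6:64728875-64729174, plus strand) held 1 N-box match. The Fcgbp window (chr7:28070986-28071285, plus strand) held 1 E-box match, and the Creb3l4 window (chr3:90243463-90243762, minus strand) held 0. Of the 31 goblet cell genes followed here, 19 were matched in the promoter table, and 4 of them (21.1%) held the E-box: Muc2, Fcgbp, Guca2a and Pdia5. The same hexamer stood in 16.1% of all 27025 promoters and in 14.2% of the 8783 promoters matched to tested genes. The N-box stood in 42.6% of all promoters, so a match is common and describes only the letters.

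No gene differed between the groups after correction for all genes. Of 34197 genes in the table, 11462 had enough counts to be tested, and 0 (0%) had an adjusted p under 0.05 in edgeR's quasi-likelihood test with Benjamini-Hochberg adjustment, where the smallest adjusted p was 0.9999. DESeq2 also called 0 genes. At an unadjusted p under 0.05 there were 283 genes (2.47%), of which 129 (1.13%) were higher and 154 (1.34%) were lower after 130 min pulses, and without DMSO replicate 2 the count was 427. All 3 pulsed libraries stood above all 3 DMSO libraries in 435 genes (3.8%) and below them in 460 genes (4.01%). The median log2 change was -0.00318, with a median standard error of 0.22.

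The changes were small where the counts were deep. Among the 4445 genes with a mean of 30 to 100 CPM (counts scaled to a common library total), the median size of the log2 change was 0.13 and 98.4% of genes lay within 1.5-fold. In the 3197 genes between 100 and 300 CPM it was 0.076, with 99.6% within 1.5-fold. A difference beyond 2-fold was seen in 5, 2 and 2 genes of the levels 30 to 100, 100 to 300 and over 300 CPM. Below 10 CPM the median standard error was 0.59, so a 2-fold difference there was within 2 such errors.

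**Figure D1:**
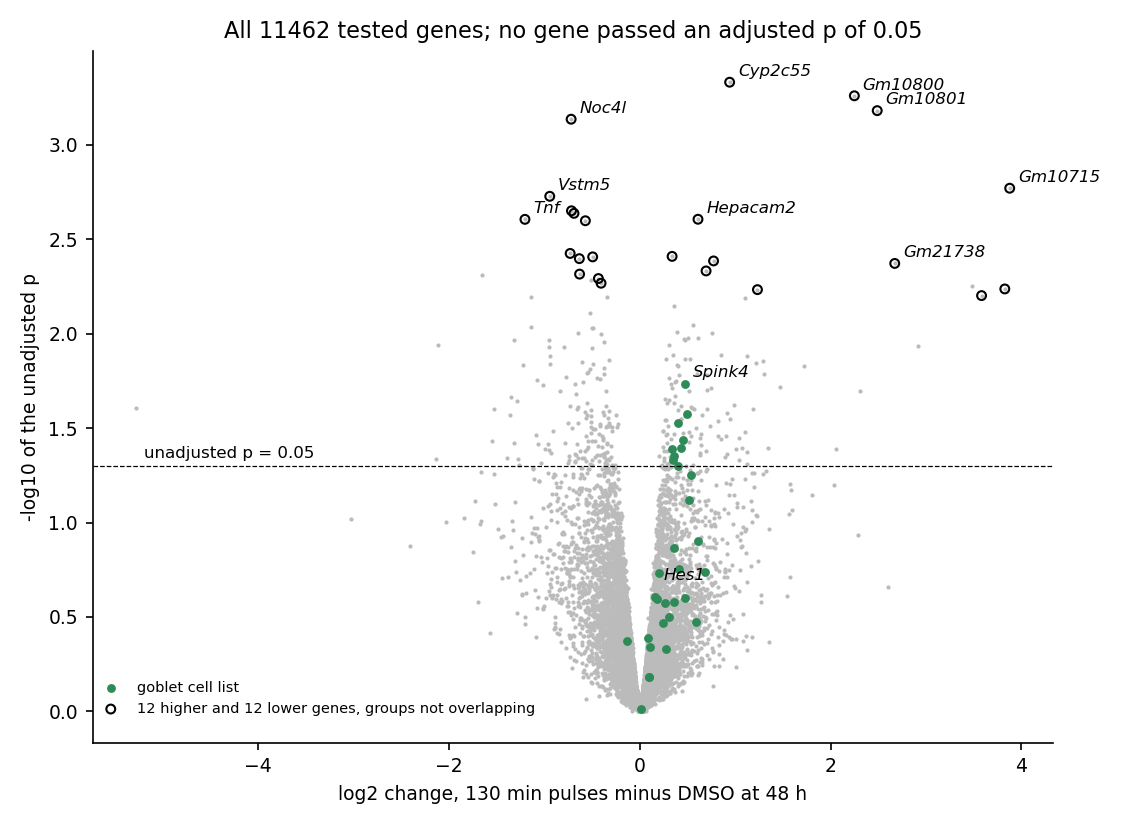
Log2 change after 130 min pulses relative to DMSO at 48 h (x axis) against the -log10 of the unadjusted p from edgeR (y axis) for 11462 genes. Green points are the goblet cell list, of which 30 of 31 lie right of 0, rings mark the 24 genes named as higher or lower, and 0 genes passed an adjusted p of 0.05.

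The pulsed libraries held 960086, 876314 and 849195 counts, and the DMSO libraries 1193223, 830559 and 828506. Epithelial and duodenal markers were present in all 6 libraries, with Epcam at 400 to 443 CPM after pulses and 386 to 494 CPM in DMSO, Gata4 at 161 to 180 against 130 to 189 CPM, and the ileal marker Fabp6 at 0 in both. Summed markers of fibroblasts, immune cells and endothelial cells stayed low. Fibroblast markers ran from 9.37 to 37.7 CPM against 7.24 to 25.1 CPM, with 11 of 17 detected and Dcn, Lum and Pdgfrb among those at 0. Immune markers ran from 13.7 to 20.8 against 15.7 to 21 CPM, with 11 of 17 detected and Cd3d, Cd4 and Adgre1 at 0. Endothelial markers ran from 3.42 to 10.4 against 3.35 to 7.22 CPM, with 4 of 8 detected and Cdh5 and Kdr at 0. Mitochondrially encoded transcripts made up 1.12 to 1.28% of counts after pulses and 0.972 to 1.09% in DMSO, without overlap. A pair of libraries stood apart on the first principal component, which held 44.7% of the variance: pulsed replicate 1 at -26.2, against 27.8 and 20.5 for the other pulsed libraries, and DMSO replicate 3 at -45, against 15 and 8 for the other DMSO libraries. Results on gene lists are therefore also given without these 2 libraries.

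Notch pathway genes stood close to their DMSO levels. Hes1, the main Notch target of the crypt, was at 347, 379 and 353 CPM after 130 min pulses and at 294.5, 342 and 327 CPM in DMSO. The lowest pulsed library lay just above the highest DMSO library. The log2 change was 0.16 (95% interval -0.10 to 0.43) with an adjusted p of 0.9999 in edgeR, so the interval includes no difference. Of the 13 pathway genes listed, 6 were tested, with 3 higher and 3 lower and a median of -0.0036, which was -0.14 without pulsed replicate 1 and 0.19 without DMSO replicate 3. Rbpj, the DNA-binding partner of Notch, had a log2 change of 0.11 (SE 0.16), and the receptor Notch2 one of 0.089 (SE 0.17). Jag1, a Notch ligand, was at 81.6, 48.5 and 63.4 CPM after pulses and 68.7, 83.0 and 95.2 CPM in DMSO, and these ranges overlap. Notch1, Hey1, Hes5, Nrarp, Dtx1, Lfng and Heyl had too few counts to be tested.

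Genes of secretory progenitors, the cells that have left the Notch-active state, were mostly higher after 130 min pulses. Of 18 genes listed, 17 were tested and 15 were higher, against 49.3% of all tested genes, with a median log2 change of 0.36 against -0.0032 over all tested genes. At an unadjusted p under 0.05, 5 of 17 were higher and 0 lower, against 1.13% and 1.34% of all tested genes, and 0 of 17 passed the adjusted threshold. The list level, as the mean of log2(CPM + 1), was 6.17, 6.46 and 6.62 in pulsed libraries and 6.33, 6.08 and 5.85 in DMSO libraries. These levels overlapped, with pulsed replicate 1 below DMSO replicate 1. All pulsed libraries stood above all DMSO libraries in 2 of 17 genes, against 3.8% of all tested genes, and below them in 0 of 17. In bulk RNA, more cells of a type and more RNA in each cell cannot be told apart. Atoh1 was at 101, 139.7 and 154 CPM after pulses and 102, 100.3 and 88.0 CPM in DMSO. Pulsed replicate 1 lay within the DMSO range and the other pulsed libraries above it. The log2 change was 0.43 (SE 0.20), with an unadjusted p of 0.0402 and an adjusted p of 0.9999 in edgeR.

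The Notch ligands that secretory cells present to their neighbours followed the same sign without passing. Dll4 was at 63.6, 48.5 and 65.7 CPM after pulses and 44.2, 26.0 and 50.0 CPM in DMSO. Its ranges overlapped at a single point, where pulsed replicate 2 lay below DMSO replicate 3. Dll1 had a log2 change of 0.25 (SE 0.21). Gfi1, a repressor that acts after Atoh1 in the secretory lineage, was at 40.3, 39.3 and 46.6 CPM after pulses and 35.2, 27.3 and 30.9 CPM in DMSO, without overlap. Cbfa2t3, a transcriptional corepressor, had a log2 change of 0.43 (SE 0.19). Mex3a, an RNA-binding protein of slow-cycling progenitors, had one of 0.63 (SE 0.31). Without the 2 libraries that stood apart the median of the list was 0.28, with 15 of 17 higher, and without DMSO replicate 3 alone it was 0.23.

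Goblet cell genes were higher after 130 min pulses in nearly the whole list. All 31 listed genes were tested, and 30 had a positive log2 change, against 49.3% of all tested genes, with a median of 0.35. The mean level of the list, taken as the mean of log2(CPM + 1), was 7.22, 7.07 and 7.23 in the pulsed libraries and 6.84, 6.89 and 6.83 in the DMSO libraries. Every pulsed library stood above every DMSO library, by a mean of 0.32 (7.17 ± 0.091 against 6.85 ± 0.033, SD, n = 3 each). At an unadjusted p under 0.05, 8 of 31 were higher and 0 lower, against 1.13% of all tested genes higher, and 0 of 31 passed the adjusted threshold. In 10 of 31 genes the pulsed libraries all stood above the DMSO libraries, against 3.8% of all tested genes, and in 0 of 31 they all stood below. The list shares Atoh1, Spdef, Creb3l1 and Creb3l4 with the secretory progenitor list.

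**Figure D2:**
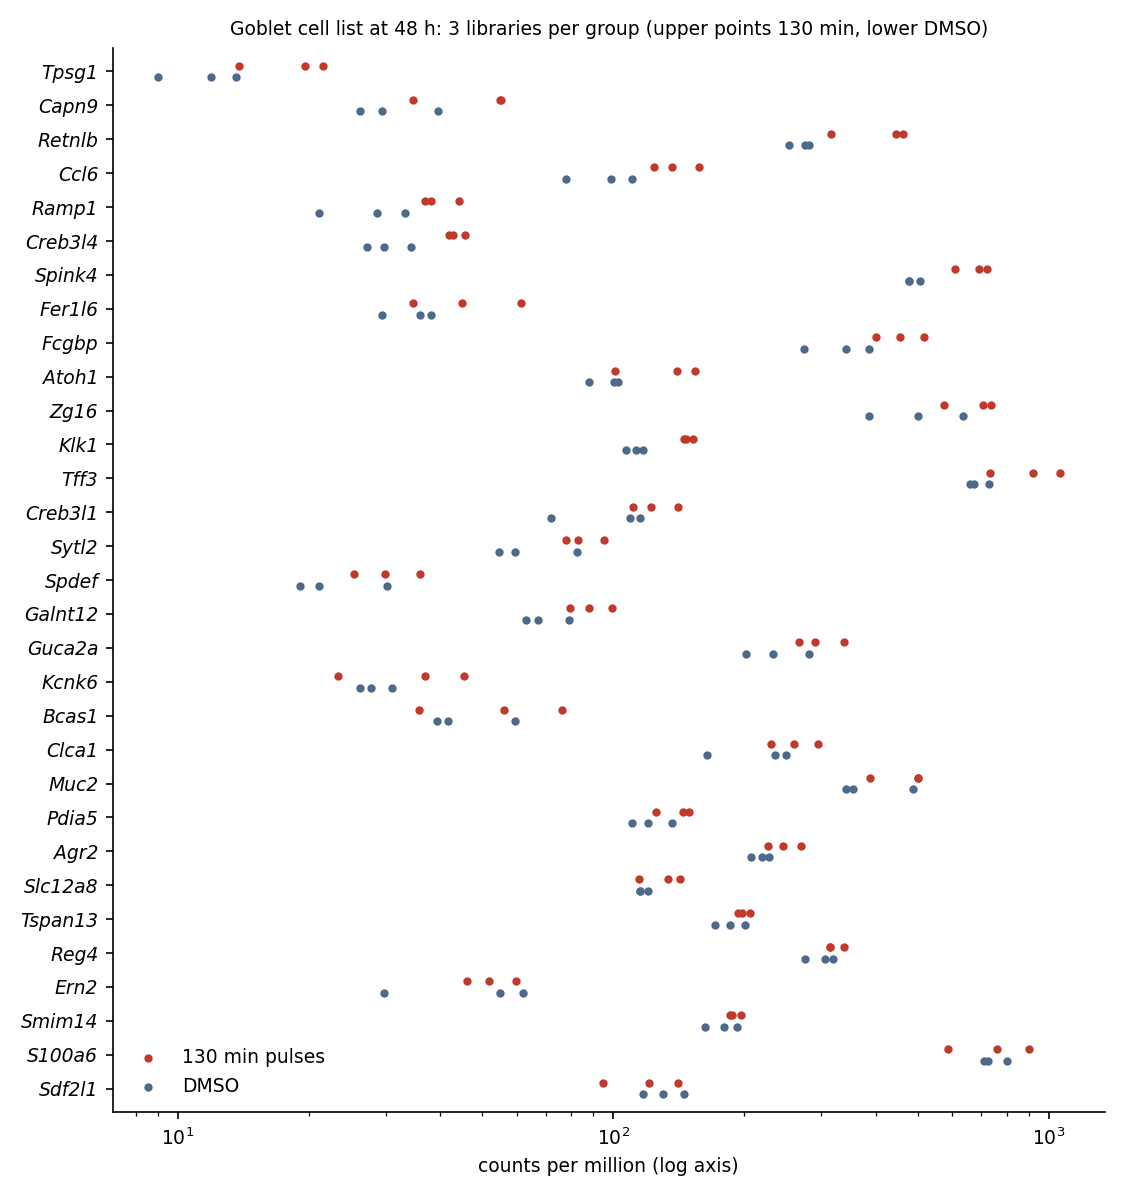
CPM on a log axis for the 31 goblet cell genes, ordered by log2 change, with 1 point for each of the 3 libraries of 130 min pulses (red, upper) and of DMSO (blue, lower) at 48 h. The red points lie right of all blue points in 10 genes, and in Sdf2l1, the lowest row, the groups overlap.

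The goblet genes covered secreted products, enzymes and regulators. Spink4, a small secreted protease inhibitor of goblet cells, was at 722, 693 and 608 CPM after pulses and 477, 478 and 506 CPM in DMSO. Every pulsed library lay above every DMSO library. The log2 change was 0.47 (SE 0.19), with an unadjusted p of 0.0184 and an adjusted p of 0.9999 in edgeR. Tff3, a trefoil peptide secreted with mucus, was at 1059.2, 734 and 918 CPM after pulses and 672, 727 and 660.4 CPM in DMSO. The lowest pulsed library exceeded the highest DMSO library by only a few CPM. Fcgbp, a large protein of the mucus gel whose promoter is shown above, was at 455, 402 and 518 CPM after pulses and 343, 387 and 274 CPM in DMSO, without overlap. The gel-forming mucin Muc2 was at 502, 389 and 502 CPM after pulses and 343, 487 and 355 CPM in DMSO, and these ranges overlapped. Klk1, a kallikrein protease, was at 153, 145.5 and 147 CPM after pulses and 117, 113 and 107 CPM in DMSO. Creb3l4, a membrane-bound transcription factor, was at 45.6, 42.7 and 41.8 CPM after pulses and 34.4, 27.3 and 29.7 CPM in DMSO. Both genes were separate between the groups with a narrow spread among the pulsed libraries.

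The remaining goblet genes without overlap were Retnlb, an antimicrobial resistin-like protein (0.59, SE 0.61), Ccl6, a chemokine (0.53, SE 0.27), Ramp1, a receptor partner protein (0.52, SE 0.28), Tpsg1, a transmembrane tryptase (0.68, SE 0.50), and Galnt12, an enzyme of mucin glycosylation (0.35, SE 0.17), all as log2 changes. Spdef, a transcription factor of goblet cell maturation, had a log2 change of 0.35 (SE 0.31), with 36.1, 25.4 and 29.9 CPM after pulses and 30.3, 21.1 and 19.0 CPM in DMSO. The smallest and the negative value of the list were S100a6, a calcium-binding protein, at 0.0083 (SE 0.23), and Sdf2l1, an endoplasmic reticulum chaperone partner, at -0.13 (SE 0.16). Hepacam2, an immunoglobulin-like adhesion protein that is not in the list, was at 94.4, 117 and 126.7 CPM after pulses and 78.5, 76.8 and 64.3 CPM in DMSO (log2 change 0.61, SE 0.19). It was named among genes whose groups did not overlap, so its separation is part of the choice. A separate list of mucus glycosylation enzymes and membrane mucins had 15 of 21 tested genes higher with a median of 0.088. Without the 2 libraries that stood apart, 28 of 31 goblet genes were higher with a median of 0.27, and over all settings tried the median ran from 0.27 to 0.42. The mitochondrial share of counts was also higher in all pulsed libraries at 48 h, as were the mean levels of this list and of the stem and Paneth cell lists. Over pulsed replicates 1 to 3 the share was 1.28, 1.16 and 1.12%, beside goblet levels of 7.22, 7.07 and 7.23. The part of the mitochondrial share in the differences was not tested.

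Stem cell and Paneth cell genes were also mostly higher after 130 min pulses, by less. Of 20 genes of Lgr5 stem cells, all tested, 17 were higher with a median log2 change of 0.16. The mean list level was 7.44, 7.34 and 7.27 in pulsed libraries and 7.09, 7.17 and 7.26 in DMSO libraries, so the groups were barely separate. Lgr5, a receptor for R-spondin, was at 183, 185 and 188 CPM after pulses and 167, 154 and 142 CPM in DMSO. The pulsed libraries lay close together and above the DMSO libraries, with a log2 change of 0.26 (SE 0.29) and an adjusted p of 0.9999 in edgeR. Olfm4, a secreted stem cell marker, was at 591, 983 and 791 CPM after pulses and 762, 785 and 374 CPM in DMSO, with overlap. Ascl2, a transcription factor of stem cells, had a log2 change of 0.095 (SE 0.15). In 5 of 20 genes (Lgr5, Lrig1, Cdca7, Rgmb and Soat1) the groups did not overlap, against 3.8% of all tested genes, and 0 of 20 had an unadjusted p under 0.05. Lrig1, a brake on EGF receptor signalling, was at 101, 99.3 and 118 CPM after pulses and 86.7, 81.8 and 96.4 CPM in DMSO. Without the 2 libraries apart, 17 of 20 genes were higher with a median of 0.16.

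Of 21 tested Paneth cell genes, 20 were higher with a median of 0.27, which was 0.13 with 17 of 21 higher without the 2 libraries apart. The mean list level was 7.44, 7.39 and 7.20 in pulsed libraries and 7.13, 7.17 and 6.85 in DMSO libraries, and the lowest pulsed library lay just above the highest DMSO library. Lyz1, lysozyme, was at 430.5, 1288.8 and 1094.9 CPM after pulses and 758, 840.0 and 390.3 CPM in DMSO, so pulsed replicate 1 and DMSO replicate 3 were the low libraries. Mmp7, the protease that activates defensins, had a log2 change of 0.27 (SE 0.26). The defensin Defa24 was at 528, 583 and 467 CPM after pulses and 437, 414 and 261 CPM in DMSO, without overlap. It was the only 1 of 21 genes in which all pulsed libraries stood above the DMSO libraries, against 3.8% of all tested genes. At an unadjusted p under 0.05 in edgeR, 1 of 21 was higher and 0 lower, against 1.13% and 1.34% of all tested genes. Defensin genes are near-identical copies between which reads cannot be assigned with certainty.

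The differences in absorptive and enteroendocrine genes depended on single libraries. Of 40 tested enterocyte genes, 36 were higher after pulses with a median log2 change of 0.35. The mean list level was 7.03, 7.29 and 7.35 in pulsed libraries and 7.12, 7.41 and 5.60 in DMSO libraries. DMSO replicate 3 lay below the pulsed mean in 40 of 40 genes and DMSO replicate 2 in 4 of 40. Without DMSO replicate 3, 21 of 40 genes were higher and the median was 0.013. Sis, the disaccharidase sucrase-isomaltase, shows the pattern with 476, 502 and 473 CPM after pulses and 369, 513 and 115 CPM in DMSO. Alpi, intestinal alkaline phosphatase, had a log2 change of 0.40 (SE 0.24), and Apoa4, an apolipoprotein of the villus tip, one of -0.0059 (SE 0.70). Villus tip genes had 13 of 21 higher with a median of 0.093, and -0.094 without DMSO replicate 3. Genes of lipid use that PPAR factors control had 21 of 27 higher with a median of 0.074, and 0.016 without that library.

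A pair of cytochromes P450 stood above all DMSO libraries, DMSO replicate 3 being the lowest in both. Cyp2c55, a cytochrome P450 that oxidises fatty acids, was at 399, 309.5 and 349 CPM after pulses and 187, 264 and 99.9 CPM in DMSO. The groups did not overlap, which is part of how Cyp2c55 was chosen. Its unadjusted p of 0.000465 was the smallest of the genes named here, with an adjusted p of 0.9999 in edgeR. The log2 change was 0.94 (SE 0.24) and ran from 0.56 to 1.28 over the settings tried. Cyp3a11, a cytochrome P450 that metabolises drugs, was at 606, 658 and 798 CPM after pulses and 459.8, 567 and 139 CPM in DMSO, without overlap (log2 change 0.82, SE 0.37, and 0.43 without DMSO replicate 3). Asah2, a ceramidase of the brush border, was at 128, 125 and 136 CPM after pulses and 83.4, 138.7 and 71.4 CPM in DMSO, with overlap.

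Enteroendocrine genes varied most of the cell type lists. The mean list level was 1.45, 5.63 and 5.42 in pulsed libraries and 5.43, 4.69 and 2.64 in DMSO libraries. Chga, a protein of hormone granules, was at 0, 169.8 and 131 CPM after pulses and 127, 69.4 and 22.6 CPM in DMSO. Pulsed replicate 1 had no Chga count, and in 0 of 21 tested genes did it exceed the DMSO mean. Chga was similarly low in some other libraries of the series, with 4.29 CPM in replicate 1 at 24 h and 3.52 and 3.88 CPM in replicates 1 and 2 at 72 h of 130 min pulses. For 170 min pulses it was 2.44 and 3.35 CPM in replicate 1 at 24 h and 48 h and 2.47 CPM in replicate 2 at 72 h, whereas replicate 1 of 90 min pulses had 65.4 to 73.8 CPM at the 3 durations. At 24 h, replicates 1 to 3 had 70.4, 12.2 and 110.7 CPM for 90 min and 74.0, 16.9 and 84.55 CPM in DMSO. At 48 h replicate 3 was the lowest in both, at 26.0 and 22.6 CPM. At 72 h DMSO replicates 1 to 3 had 38.1, 37.4 and 6.34 CPM, so a low value also occurred without DAPT. The labels do not say which libraries shared a culture, so culture and treatment cannot be told apart. Of 21 tested genes 16 were higher with a median log2 change of 0.34, and the median depended on which library was left out. It was -0.066 with 8 of 21 higher without DMSO replicate 3, 0.87 without pulsed replicate 1 and 0.44 with 18 of 21 higher without both. Tuft cell genes had 4 of 13 higher with a median of -0.13, which was -0.018 without pulsed replicate 1 and -0.36 without DMSO replicate 3. Dclk1, a kinase that marks tuft cells, was at 2.12, 12.7 and 10.8 CPM after pulses and 23.7, 4.96 and 3.57 CPM in DMSO.

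**Figure D3:**
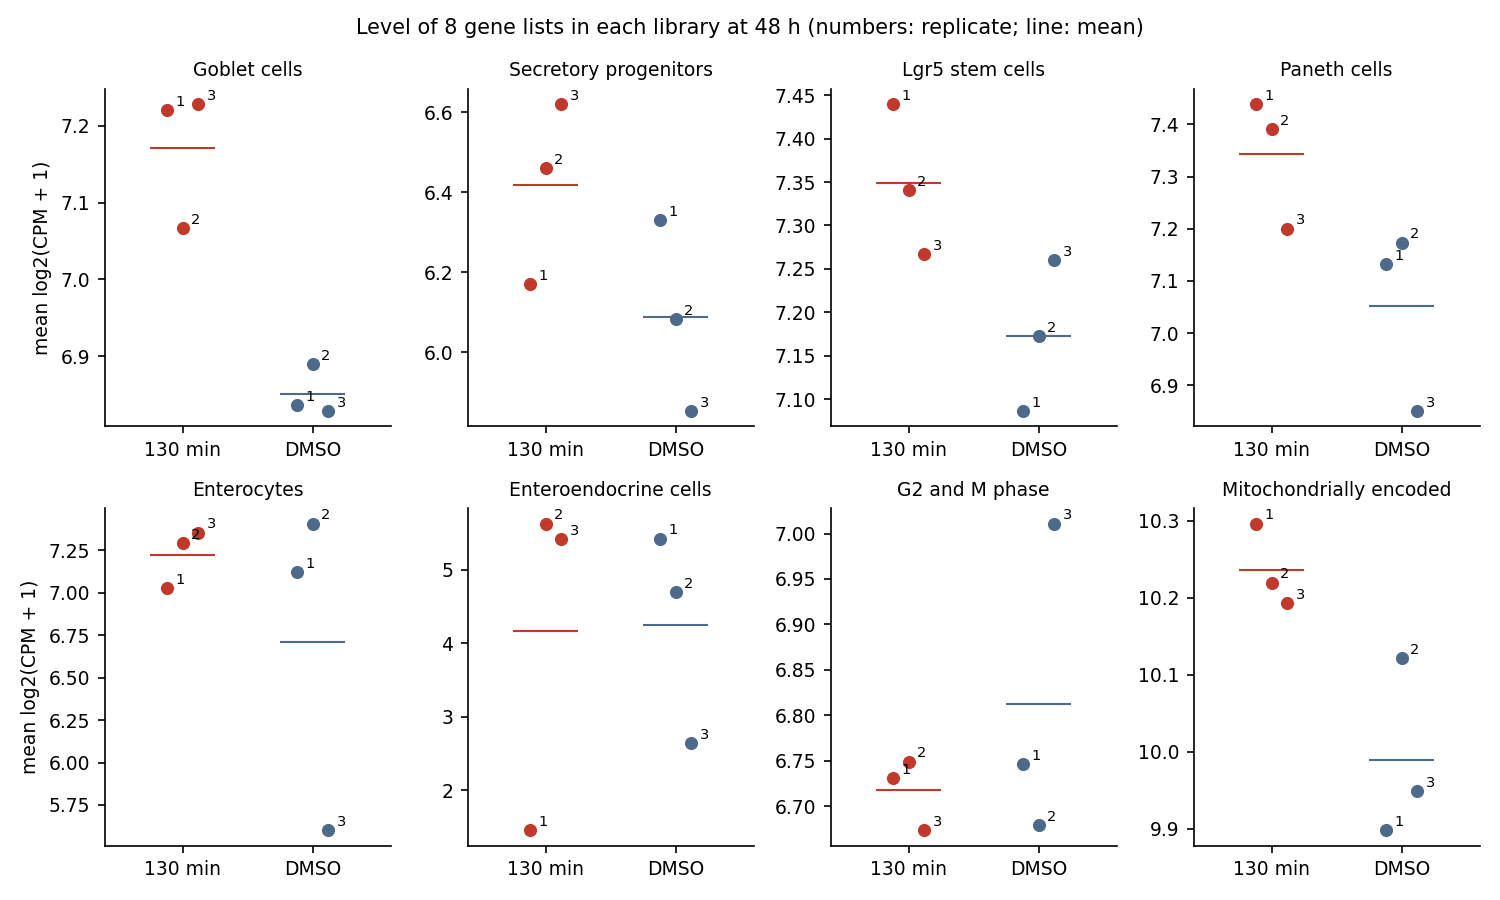
Mean of log2(CPM + 1) over the tested genes of 8 lists in each library at 48 h, with 130 min pulses in red, DMSO in blue, replicate numbers beside the points, a line at the group mean and a separate y axis for each list. The goblet levels of the pulsed libraries (7.07 to 7.23) lie above those of DMSO (6.83 to 6.89), whereas the enterocyte mean of DMSO is drawn down by replicate 3 at 5.60.

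Proliferation genes were slightly lower after pulses, and this rested on the library that was low in enterocyte genes. G2 and M phase genes had 33 of 40 lower with a median log2 change of -0.093, and 3 of 40 were lower at an unadjusted p under 0.05, against 1.34% of all tested genes. Their mean level was 6.73, 6.75 and 6.67 in pulsed libraries and 6.75, 6.68 and 7.01 in DMSO libraries. DMSO replicate 3 was the high library, and without it 24 of 40 genes were higher with a median of 0.026. Tacc3, a spindle protein, was at 162, 139.7 and 151 CPM after pulses and 162.0, 209 and 219 CPM in DMSO. Mki67, the proliferation marker, was at 214, 229 and 206 CPM after pulses and 216, 213 and 238 CPM in DMSO, with overlap. S phase genes had 23 of 34 lower with a median of -0.027, and 0.052 without DMSO replicate 3.

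Inflammatory and regenerative genes were mostly lower in the group means, but the mean levels of both lists overlapped between the groups. Of 18 tested NF-kB and inflammatory genes, 14 were lower with a median log2 change of -0.17, and 3 of 18 lower and 1 of 18 higher had an unadjusted p under 0.05, against 1.34% and 1.13% of all tested genes. Tnf, an inflammatory cytokine, was at 28.6, 17.3 and 21.5 CPM after pulses and 41.7, 45.8 and 70.2 CPM in DMSO. The groups did not overlap, which is part of how Tnf was chosen. The log2 change was -1.20 (SE 0.37) with an unadjusted p of 0.00248 and an adjusted p of 0.9999 in edgeR. Bcl3, a nuclear partner of NF-kB, was at 16.97, 27.7 and 26.3 CPM after pulses and 40.1, 42.1 and 35.7 CPM in DMSO. Zc3h12a, an RNase that degrades inflammatory messages, was at 30.7, 31.2 and 31.1 CPM after pulses and 51.5, 43.4 and 36.9 CPM in DMSO. Both were separate between the groups. All pulsed libraries stood below all DMSO libraries in 3 of 18 genes and above them in 1 of 18, against 4.01% and 3.8% of all tested genes. By library, the mean list level was 5.605, 5.17 and 5.08 after pulses and 5.60, 5.54 and 5.57 in DMSO. Pulsed replicate 1 thus lay above every DMSO library. The NF-kB median was -0.35 without pulsed replicate 1, -0.10 without DMSO replicate 3 and -0.21 without both. Fetal-like and YAP target genes had 22 of 28 lower with a median of -0.19, which was -0.38 without pulsed replicate 1 and -0.028 with 12 of 28 higher without DMSO replicate 3. Ankrd1, a YAP target, was at 22.3, 4.62 and 7.17 CPM after pulses and 30.3, 13.6 and 29.7 CPM in DMSO, with overlap.

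The mitochondrially encoded transcripts were all higher, 9 of 9 tested, with a median log2 change of 0.19 and, without the 2 libraries apart, 0.21 with 9 of 9 higher. Their mean list level was 10.3, 10.2 and 10.2 in pulsed libraries and 9.90, 10.1 and 9.95 in DMSO libraries, without overlap. mt-Rnr1, a mitochondrial ribosomal RNA, was at 1451.5, 1147.9 and 930 CPM after pulses and 758, 756 and 969 CPM in DMSO, with overlap. mt-Cytb, a subunit of respiratory complex III, was at 1807.8, 1760.0 and 1683.0 CPM after pulses and 1241.0, 1650.2 and 1324.3 CPM in DMSO, without overlap. Ppargc1a, a coactivator of mitochondrial gene programmes, was at 33.9, 38.1 and 21.5 CPM after pulses and 13.9, 18.6 and 7.14 CPM in DMSO. It was named among genes without overlap, so its separation is part of the choice. Stress and housekeeping lists stayed near 0. The medians were 0.019 for 31 genes of the unfolded protein response, -0.047 for 27 of hypoxia and glycolysis, -0.051 for 28 p53 targets, -0.038 for 20 of the interferon response, 0.021 for 22 immediate early and heat shock genes, 0.031 for 32 of cholesterol synthesis and 0.052 for 33 ribosomal proteins. Small lists had medians of 0.11 for 5 BMP targets, 0.33 for 11 villus bottom antimicrobial genes and 0.34 for 7 gastric or Brunner gland genes. Without the 2 libraries apart the villus bottom median was 0.10 and the gastric median -0.062, and without DMSO replicate 3 alone they were 0.17 and 0.14.

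Single genes lower after pulses were chosen by smallest p among those whose groups did not overlap, so their separation is part of the choice. Noc4l, a factor of ribosome assembly in the nucleolus, was at 36.1, 40.4 and 37.1 CPM after pulses and 62.2, 60.7 and 64.3 CPM in DMSO. Both groups were tight and far apart, with a log2 change of -0.72 (SE 0.19), an unadjusted p of 0.00073 and an adjusted p of 0.9999 in edgeR, and the change ran from -0.77 to -0.66 over the settings tried. Mul1, a ubiquitin ligase of the mitochondrial outer membrane, was at 27.6, 25.4 and 26.3 CPM after pulses and 44.2, 43.4 and 40.5 CPM in DMSO. Brip1, a DNA repair helicase, was at 24.4, 19.6 and 21.5 CPM after pulses and 34.4, 35.9 and 38.1 CPM in DMSO. Dnajc9, a histone co-chaperone, was at 47.7, 50.8 and 43.0 CPM after pulses and 72.0, 79.3 and 69.0 CPM in DMSO. In each of these genes the highest pulsed library lay well below the lowest DMSO library. The other lower genes chosen by the same rule were Vstm5 (-0.94, SE 0.28), Dhx8, a splicing helicase (-0.73, SE 0.23), Ctnnbl1, a spliceosome-associated protein (-0.63, SE 0.21), Ttc27 (-0.57, SE 0.17), Snrnp25, a protein of the minor spliceosome (-0.49, SE 0.16), Gm5445 (-0.43, SE 0.14) and Cstf2, a factor of 3′ end cleavage (-0.41, SE 0.14), all as log2 changes.

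The 12 genes chosen as higher were picked by the same rule, so their separation at 48 h is part of the choice. Of these 12, 6 were predicted genes with repeat-like sequence. Gm10801 was at 1060.3, 928 and 396 CPM after pulses and 225, 92.9 and 96.4 CPM in DMSO, and Gm10800 at 826, 708 and 313 CPM against 215, 78.0 and 83.3 CPM. Their log2 changes were 2.49 (SE 0.64) and 2.25 (SE 0.57), with adjusted p of 0.9999 in edgeR. Together with Gm10715, Gm10718, Gm10720 and Gm21738, and with Gm10717, Gm10719 and Gm17535, which were added after their values were seen, they make 9 genes. In the GENCODE mouse annotation 6 lie on chromosome 9, 2 on chromosome 2 and 1 on chromosome 14. Genes of this kind share sequence, so reads cannot be assigned to one of them with certainty, and they are described by their sum. The sum was 2477, 2158 and 956 CPM after pulses and 609, 205.7 and 203.5 CPM in DMSO. At 24 h it was 1424, 3321 and 409 CPM against 608, 772 and 261 CPM, and at 72 h 2949, 716 and 988 CPM against 491, 656 and 1011 CPM, with overlap at both durations. The sum varied up to several-fold among replicates of a pulsed group, and at 48 h the other periods gave 577, 461 and 247 CPM for 90 min and 979, 933 and 712 CPM for 170 min. The remaining higher genes were Gm44985, at 127, 121 and 123 CPM after pulses and 97.3, 97.9 and 98.8 CPM in DMSO, Cnst, a protein of connexin transport (0.77, SE 0.25), and Fam117a (0.69, SE 0.23).

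**Figure D4:**
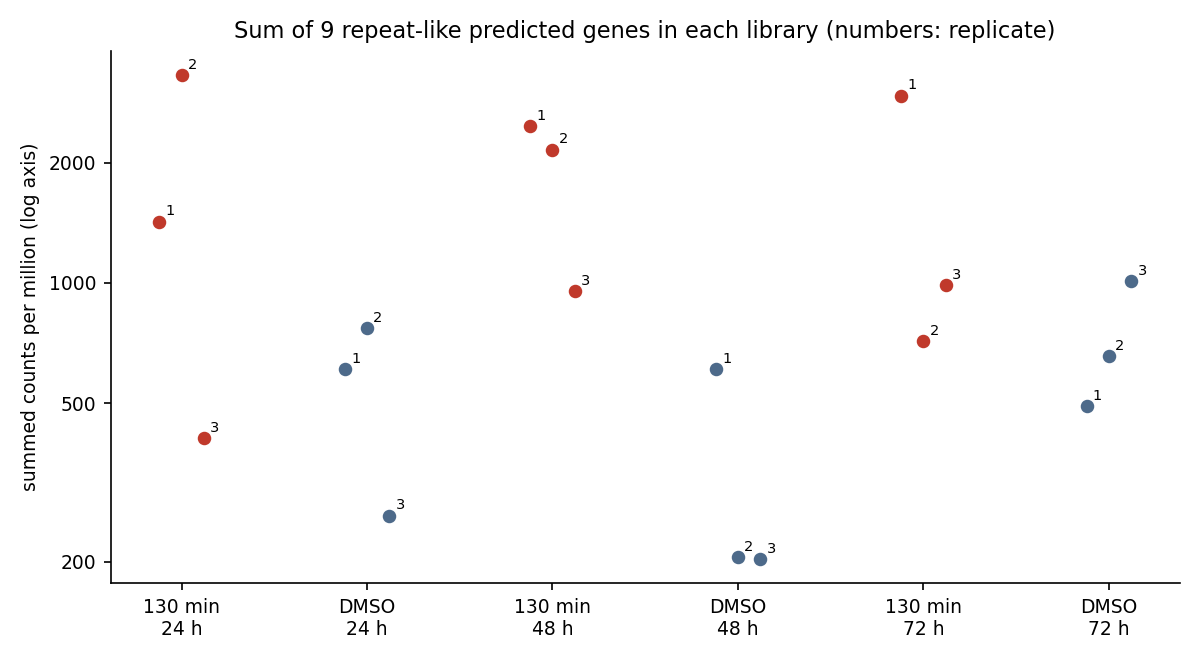
Summed CPM of 9 repeat-like predicted genes on a log axis in each library of 130 min pulses (red) and DMSO (blue) at 24, 48 and 72 h, with replicate numbers beside the points. At 48 h the lowest pulsed library (956 CPM) lies above the highest DMSO library (609 CPM), and at 24 h and 72 h the groups overlap.

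The 48 h difference was then set against those at 24 h and 72 h, which used separate libraries. At 24 h organoids had been passaged 3 days before and at 72 h 1 day before, so duration and time since passage cannot be told apart. Against DMSO of their own duration, 0 genes passed in edgeR at 24 h with 539 (4.7%) at an unadjusted p under 0.05, and 0 at 72 h with 1179 (10.3%). In the interaction of treatment and duration, 0 genes passed an adjusted p under 0.05 in edgeR for 48 h minus 24 h, with 254 (2.22%) at an unadjusted p under 0.05, and DESeq2 called 0. For 48 h minus 72 h, 0 passed, with 765 (6.67%) at an unadjusted p under 0.05 and 0 by DESeq2. The goblet list had a median log2 change of 0.023 at 24 h with 18 of 31 higher, 0.35 at 48 h with 30 of 31 higher and -0.12 at 72 h with 11 of 31 higher. Lgr5 stem cell genes had medians of -0.050, 0.16 and -0.17 at 24, 48 and 72 h. Fetal-like and YAP target genes had medians of -0.26, -0.19 and 0.87, with 28 of 28 higher at 72 h. No difference between durations was tested for a list as a whole.

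**Figure D5:**
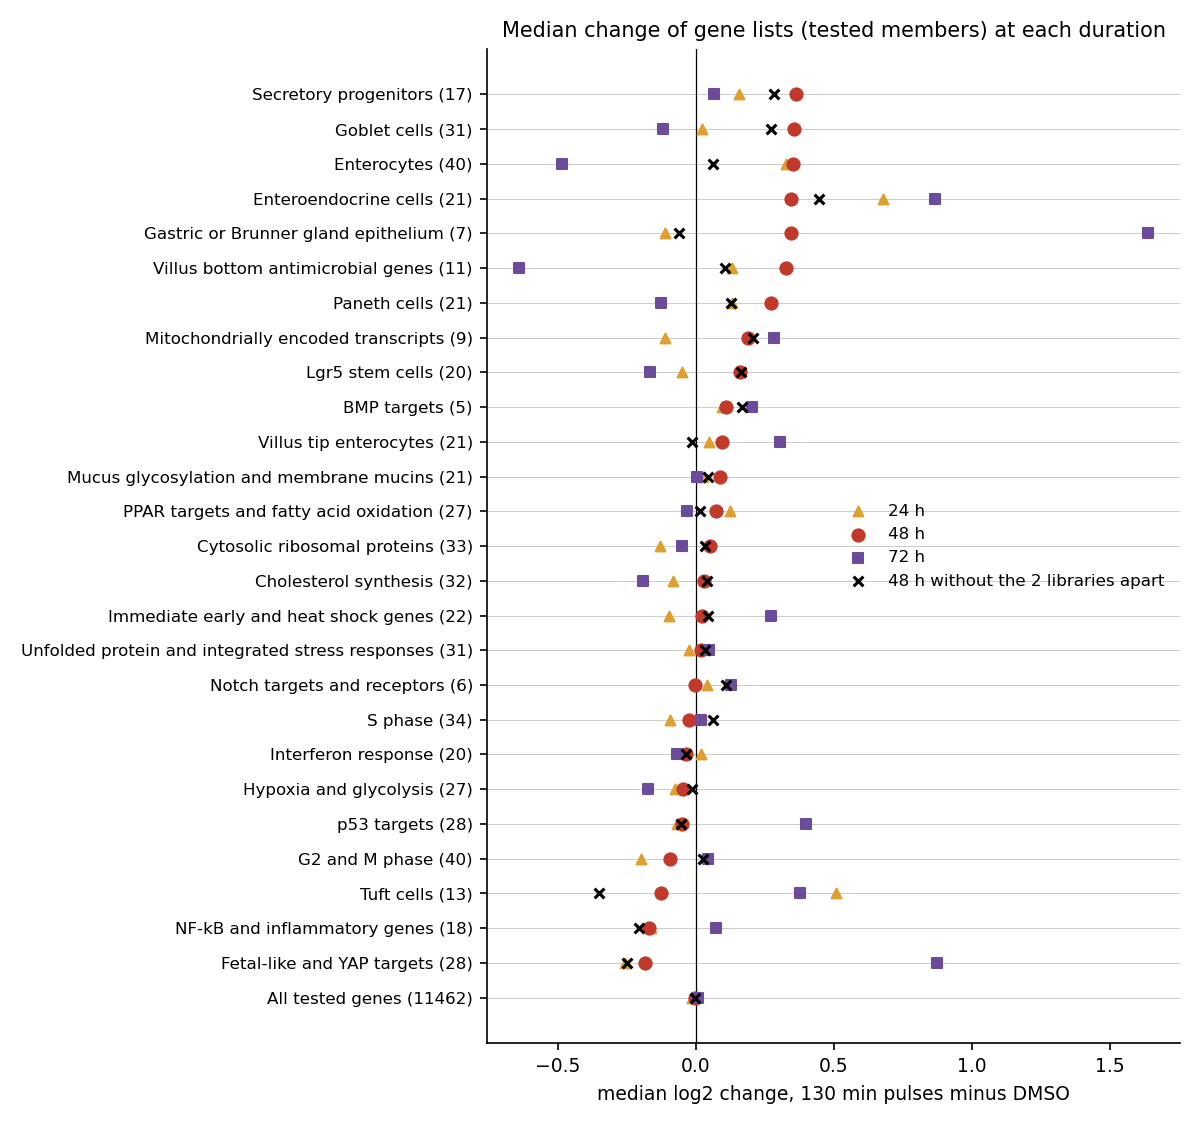
Median log2 change after 130 min pulses relative to DMSO over the tested genes of each list (number in brackets) at 24 h (triangles), 48 h (circles) and 72 h (squares), with crosses for 48 h without pulsed replicate 1 and DMSO replicate 3. The goblet list stands at 0.023, 0.35 and -0.12, and all tested genes stand near 0.

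Of the genes named for their interaction p, Asah2 had the smallest, with log2 changes of 0.42 at 48 h and -1.04 at 72 h and a 48 h minus 72 h difference of 1.47 (SE 0.34, adjusted p = 0.693 in edgeR). Flvcr1, a heme exporter, had a 48 h minus 72 h difference of 0.80 (SE 0.21). Brip1 had a log2 change of -0.72 at 48 h, and its 48 h minus 24 h difference was -1.22 (SE 0.32, adjusted p = 0.9999 in edgeR). Orc2, a subunit of the replication origin complex, was at 24.4, 20.8 and 26.3 CPM after pulses and 35.995, 37.2 and 39.3 CPM in DMSO at 48 h. Its 48 h minus 72 h difference was -1.27 (SE 0.33, adjusted p = 0.693 in edgeR). Tirap, an adaptor of Toll-like receptors, was at 38.2, 41.6 and 40.6 CPM after pulses and 58.9, 54.5 and 55.9 CPM in DMSO at 48 h, with a 48 h minus 72 h difference of -1.20 (SE 0.31, adjusted p = 0.693 in edgeR). Against 24 h, Prune1, a phosphatase, had a difference of -1.75 (SE 0.52), Ing1, a chromatin reader, one of 0.65 (SE 0.20) and Flna, an actin crosslinker, one of 0.56 (SE 0.17). None of these genes passed the adjusted threshold.

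At 48 h the other periods were tested directly against 130 min, since their differences from DMSO share the DMSO libraries. Between 130 min and 90 min, edgeR passed 0 genes at an adjusted p under 0.05 and DESeq2 likewise 0, while 342 (2.98%) had an unadjusted p under 0.05. Between 130 min and 170 min, 0 passed in both, with 257 (2.24%). These tests took no pairing by replicate number, and whether replicate numbers paired the libraries of different periods was not tested. Chga at 48 h ran alike by replicate number in the 130 min and 170 min groups. It was at 0, 169.8 and 131 CPM for 130 min and 3.35, 161.3 and 119.9 CPM for 170 min. For 90 min it was at 73.8, 102.4 and 26.0 CPM, with replicate 3 the lowest. The labels do not say which libraries shared a culture, so period and culture cannot be told apart in these comparisons. The DAPT concentration also differed, with 1.38 µM for 90 min against 2 µM for 130 min, so period and dose cannot be told apart. For 170 min the labels name a pair of concentrations, one of them that of 130 min, without saying which these samples received. The goblet list had a median log2 change of 0.26 for 90 min, 0.35 for 130 min and 0.26 for 170 min relative to DMSO, all against the same 3 DMSO libraries, and set directly against the other periods the medians were -0.012 against 90 min and 0.12 against 170 min. Lgr5 stem cell genes had a median of 0.27 for 130 min against 90 min, with 19 of 20 higher, and Paneth genes one of 0.34 with 18 of 21 higher. Other lists had medians as large there, with 0.36 and 9 of 9 higher for mitochondrially encoded transcripts, 0.26 and 37 of 40 for enterocytes and 0.52 and 20 of 21 for enteroendocrine cells, beside a median of -0.0093 over all tested genes in that comparison. Vstm5, a membrane protein, was named in the comparison with 90 min too, with a difference of -1.002 (SE 0.27, adjusted p = 0.9999 in edgeR).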

How the data were processed

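The deposited table holds whole-number counts of molecular barcodes (UMIs) per gene and library, without normalization by the authors apparent in it. Libraries followed Sort-seq, per the labels' protocols, and STAR 2.7.8a and UMI-tools 1.1.1 are named in the submitters' processing notes. For genome build and annotation, none was given in the sources used here. All 36 columns were mapped to samples by name, with 0 left over. Genes were tested with edgeR 4.0.16 in R 4.3.3 (filterByExpr, TMM, robust quasi-likelihood F test, two-sided) in 1 model of 12 groups of 3 libraries with 24 residual degrees of freedom. P-values were adjusted by Benjamini-Hochberg over 11462 genes with a threshold of 0.05, and 22735 genes were not tested. The comparisons were 5: the pulses with DMSO at 48 h, 48 h with 24 h and with 72 h, and 130 min with 90 min and with 170 min. CPM are counts scaled to the usual common library total, with TMM factors. An exact test of 3 against 3 libraries cannot go below 0.1, so list levels were not tested.

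Genes were named as up to 12 higher and 12 lower by smallest p, here those whose groups did not overlap and whose mean was at least 10 CPM, since none passed, plus 2 higher and 2 lower for each other comparison, 3 for each of 29 gene lists and a panel of 20 markers. Other members of the lists are named as examples, chosen after their values were seen. The groups, lists and rules were chosen with earlier results of these data known. Replicate numbers did not pair the pulsed libraries with the DMSO libraries in the direct comparison at 48 h. Over 8001 genes the deviations of same-numbered libraries from their group means correlated at -0.43, 0.09 and -0.34. This check did not cover pairs of pulse periods, and Chga at 48 h ran alike by replicate number in the groups of the longer periods. Pairs of replicates differed by more than counting noise (chi-square per degree of freedom 1.27 to 3.76). Alternatives were DESeq2 1.42.0, other scaling, filters and model libraries, a replicate block, library total as a covariate and leaving out each library. The gene test was run on simulated counts with the same spread for every gene and no library standing apart. These data differ in both, so that run cannot show how many differences the test would miss here.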

Additional observations from a re-analysis of the deposited data

Results flagged for a closer look

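For 8 named genes, all libraries of 130 min pulses lay on one side of their DMSO libraries at 48 h and on the other side at another duration. Some were named for separation at 48 h or for a small interaction p, so such a reversal is partly built into the choice. The share of all tested genes with such a reversal was not counted. The interaction test of the difference itself passed for 0 of the 8 in edgeR, with adjusted p between 0.693 and 0.9999.

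Vstm5 was at 11.7, 30.0 and 21.5 CPM after pulses against 45.0, 40.9 and 34.5 CPM in DMSO at 48 h, and at 33.2, 31.3 and 31.9 CPM against 25.4, 25.9 and 25.6 CPM at 24 h, a log2 difference between durations of -1.27. Flna, an actin crosslinker, was at 130.4, 140.9 and 137.5 CPM against 121.1, 111.5 and 128.5 CPM at 48 h, and at 95.3, 84.8 and 78.8 CPM against 120.2, 122 and 99.9 CPM at 24 h, a difference of 0.56.

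Against 72 h, the heme exporter gene Flvcr1 differed by 0.8 and the adaptor gene Tirap by -1.2. Tirap was at 52.8, 85.3 and 64.5 CPM after pulses and 39.5, 37.4 and 49.7 CPM in DMSO at 72 h, the reverse of 48 h. Orc2 differed by -1.27, with 45.8, 44.6 and 38.4 CPM after pulses and 27.8, 31.1 and 24.3 CPM in DMSO at 72 h. Creb3l4, the goblet cell transcription factor, differed by 0.95, with 17.6, 30.1 and 21.9 CPM after pulses and 32.2, 31.1 and 34.9 CPM in DMSO at 72 h. The stem cell gene Lrig1 differed by 0.41, and Plaur, the urokinase receptor, by -1.53.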

How the results depend on the processing

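The comparison of 130 min pulses with DMSO at 48 h kept 0 genes past the adjusted threshold under each setting tried, among them DESeq2, the replicate block within each duration and leaving out each library. In the 6 libraries alone the replicate block also gave 0, and it changed no call. The comparison of 48 h with 72 h gave 11 genes without the filter on low counts and 0 otherwise. The counts at an unadjusted p under 0.05 moved more. For the pulses against DMSO, 283 became 608 without the filter, 163 with DESeq2, 138 in the 6 libraries with the block and 427 without DMSO replicate 2. For 48 h minus 24 h, 254 became 604 without the filter, 118 with DESeq2, and 410 and 459 without replicates 1 and 3 of 130 min pulses at 24 h. For 48 h minus 72 h, 765 became 1364 without the filter. For 130 min against 90 min, 342 became 676 without the filter, 214 with DESeq2 and 223 without replicate 1 of 90 min, and against 170 min 257 became 495 and 139. The causes were not tested. Of 432 list medians under alternatives, 429 moved by less than the larger SD of the list level between replicates. That bound is loose where the SD is wide, as for enteroendocrine (2.35) and enterocyte genes (0.97). Over the settings tried, the enteroendocrine median ran from -0.238 to 1.137 and the enterocyte median from 0.006 to 0.684. The median of the Notch list changed sign in 9 of 16 settings. Low counts limit genes under 10 CPM most.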
